A study of Mus musculus with 20 samples.

Results

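In erythroid progenitors of the mouse fetal liver kept with erythropoietin (Epo), transcript levels moved on after the first hours. The comparison set the late window of 6, 7 and 8 h against the early window of 1, 2 and 3 h under continued hormone. The members were 6 of the 20 arrays, 3 in each window, chosen by treatment and hour alone and not by any measured value. All arrays held RNA of cells named CFU-E, for colony-forming unit erythroid, from the livers of BALB/c E13.5 embryos. Mature red cells were lysed, and cells bearing markers of granulocytes, megakaryocytes, macrophages, lymphocytes or late erythroblasts (TER119) were removed with magnetic beads, so that the cells kept were defined by what they lacked. The 12 arrays with Epo covered 0 to 8 h hourly and 14, 19 and 24 h at 0.5 U/ml, and the 8 arrays without Epo covered 0 to 7 h hourly. The 0 h array with Epo served as the starting level. What came before stimulation is given in 2 ways in the labels: starved for 1 h straight after sorting, or cultured for 12 to 14 h with 0.5 U/ml Epo, so the starting state is not settled. No label says that the hours came from separate cultures or pools of embryos. Each hour had 1 array, and the 3 hours of a window stood in for replicates: a p-value here measures the difference between windows against the scatter, trends included, between successive hours, and this scatter may be technical. The study as a whole asked how inhibitors that Epo itself induces restrain the signal from its receptor.

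Epo binds a receptor on CFU-E cells that activates the kinase JAK2, which phosphorylates the transcription factor STAT5 and also opens branches through RAS and ERK and through PI3 kinase. STAT5 switches on genes for survival and, among its first targets, genes for inhibitors of the receptor, such as the SOCS family protein CIS. ERK signalling switches on immediate early genes within minutes, whose products in turn include repressors and phosphatases that close the response. At this stage of fetal erythropoiesis cells stop relying on stem cell factor, divide a few last times and build heme, globin and a red cell membrane. The question addressed here was which early changes were no longer present at 6 to 8 h and which changes built up only then.

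Promoter stretches of 4 genes that stand for different courses described below are shown first: a pair of NF-kB pathway genes with an early peak, a gene of the ATF4 amino acid response that kept rising and an inhibitor of the receptor that stayed high. Each runs 5′ to 3′ along the gene's strand and ends at the base before the RefSeq start site of build GRCm38.p6, and capitals mark the named motif. They are Nfkb2 (chr19:46304487-46304736, plus strand, NF-kB motif), Nfkbia (chr12:55492648-55492897, minus strand, NF-kB motif), Nupr1 (chr7:126625471-126625720, minus strand, ATF4 composite site) and Socs3 (chr11:117969367-117969616, minus strand, STAT motif).
Nfkb2: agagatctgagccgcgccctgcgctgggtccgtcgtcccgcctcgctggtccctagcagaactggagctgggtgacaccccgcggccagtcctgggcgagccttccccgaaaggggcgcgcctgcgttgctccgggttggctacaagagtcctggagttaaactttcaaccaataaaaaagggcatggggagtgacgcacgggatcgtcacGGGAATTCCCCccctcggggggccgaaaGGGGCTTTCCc
Nfkbia: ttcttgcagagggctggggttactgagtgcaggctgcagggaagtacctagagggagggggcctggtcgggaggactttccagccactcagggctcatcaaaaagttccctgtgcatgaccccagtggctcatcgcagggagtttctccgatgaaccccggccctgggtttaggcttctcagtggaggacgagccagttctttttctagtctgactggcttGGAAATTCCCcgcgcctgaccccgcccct
Nupr1: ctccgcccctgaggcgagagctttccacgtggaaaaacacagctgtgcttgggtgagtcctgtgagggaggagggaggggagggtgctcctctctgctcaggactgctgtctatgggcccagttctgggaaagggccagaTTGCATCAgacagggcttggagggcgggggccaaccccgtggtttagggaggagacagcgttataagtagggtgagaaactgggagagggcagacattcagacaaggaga
Socs3: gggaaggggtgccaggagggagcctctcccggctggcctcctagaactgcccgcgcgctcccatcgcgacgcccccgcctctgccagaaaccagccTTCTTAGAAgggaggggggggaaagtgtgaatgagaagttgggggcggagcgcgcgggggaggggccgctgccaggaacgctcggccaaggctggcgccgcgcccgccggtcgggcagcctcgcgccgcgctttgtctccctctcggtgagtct
The Nfkb2 stretch held 3 matches, starting 39, 38 and 11 bases before the start site, of which the first 2 overlap. In Nfkbia the match lay 29 bases before the start, in Nupr1 110 and in Socs3 154.

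Both strands of the 250 bases before the start were searched for 14452 of the 18193 genes tested. The NF-kB motif occurred in 10.1% of all these promoters and in 9 of the 16 (56.2%) with a promoter among a list of NF-kB pathway genes, Nfkb2, Nfkbia and Tnfaip3 among them. The ATF4 composite site TGATGCAA occurred in 0.74% of all promoters and in 4 of 26 (15.4%) of an ATF4 and amino acid response list, Chac1 and Nupr1 among them. The STAT motif TTCNNNGAA occurred in 7.42% of all promoters, in 4 of 18 (22.2%) of a list of STAT5 targets, 5 of 26 (19.2%) of the ATF4 list, 3 of 16 (18.8%) of the NF-kB list and in 1 of 15 (6.67%) of a list of JAK2 and STAT5 feedback inhibitors, Socs3. A match describes the letters of this window and is no measured binding, and a promoter without a match says nothing about the factor.

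Values are levels on the log2 scale of the deposited table, on which a difference of 1 is a 2-fold change, and differences are late minus early ± SE with n = 3 arrays in each window. Between any 2 of the 6 arrays the correlation over genes was 0.9862 to 0.9957, and array medians were 4.85 to 4.92. The 2 h array stood apart in its spiked controls: the ThrX-5 control read 9.32 there and 6.79 to 7.05 on the other 5 arrays. Control probe sets of the cells' own RNA differed there too, in both directions. The 5′ actin control read 11.75 against 12.36 to 12.60, and the 5′ Gapdh control 12.56 against 12.83 to 13.06. The MUR_b2 control was higher at 2 h, at 10.80 against 10.19 to 10.50. The part of the 2 h array in peaks and dips at 2 h was not tested. The 6 h array stood apart in its 18S ribosomal RNA controls. The 5′ one read 7.28 there and 6.01 to 6.45 on the other 5 arrays. The part of the 6 h array in the late means was not tested either. Defining genes of the labelled cell type were high at 0 h with Epo, with the erythroid factor gene Klf1 at 12.17, Gata1 at 10.41, the transferrin receptor gene Tfrc at 12.33 and the Epo receptor gene Epor at 9.85. Transcripts of hepatocytes, which the sort did not target, were present too, as given below with the genes that fell.

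Between the windows 941 of 18193 genes (5.17%) changed (limma, p adjusted by Benjamini-Hochberg over all genes, threshold 0.05), 348 of them higher late (1.91%) and 593 lower late (3.26%). At least 2-fold, 240 genes changed (1.32%): 65 rose (0.357%) and 175 fell (0.962%). The 3 late values did not overlap the 3 early values in 3944 genes (21.7%), which included 347 of the 348 genes that rose and 592 of the 593 that fell. On the arrays of 4 and 5 h, which no call used, the mean lay between the window means in 325 of the 348 and 553 of the 593. These hours lie between the windows in time, so any steadily drifting gene would give such a mean. The share over all genes was not counted. At 14 to 24 h the mean lay further in the called direction than at 4 and 5 h in 242 of the 348 and 511 of the 593, while it lay higher than at 4 and 5 h in 10673 of all 18193 genes. The counts moved with single arrays: 193 rose and 365 fell without 2 h, 643 and 942 without 3 h, 209 and 322 without 6 h, 134 and 272 without 7 h, and 156 and 329 without 8 h.

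Set against the single 0 h array, the called genes fell into several courses. An early mean at least 1 above 0 h was found for 58 genes (0.319%) and at least 1 below for 280 (1.54%), and a late mean that far above for 117 (0.643%) and below for 549 (3.02%). Of the 941 called genes, 15 had an early rise that faded, 5 an early fall that faded, 7 an early rise that went on and 127 an early fall that went on. A delayed rise, with an early mean within 1 of 0 h and a late mean beyond it, was found for 71 and a delayed fall for 167. In 549 called genes neither window lay as far as 1 from 0 h. A further 36 early rises and 148 early falls were not called between the windows. These classes describe distances from 1 array and carry no test, and the early mean enters both the call and the distance. With 1 h alone as the early level and 2 and 3 h against the late window, 19 rises faded, 13 of them among the 15.

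Of 41 immediate early genes, which respond to ERK and other signals within minutes, 5 had an early rise that faded. The list median rose early in both series. At 1, 2 and 3 h it was 0.46, 0.41 and 0.30 above 0 h with Epo. Without Epo it was 0.82, 0.75 and 0.44 above that series' own 0 h array. Egr1, an immediate early transcription factor gene, read 6.62 at 0 h, then 10.78, 8.86 and 9.78 at 1, 2 and 3 h, and 6.99, 7.21 and 6.46 at 6, 7 and 8 h. All early values lay above all late ones, and the late values were close to 0 h. The difference was -2.92 ± 0.35 (7.56-fold lower, adjusted p = 0.000423), the largest fall of all genes named by the rule. Nab2, which encodes a corepressor that EGR1 induces and that binds it, peaked later, at 5.13, 7.82 and 6.49 in the early window from 4.13 at 0 h, and read 4.23, 4.12 and 3.84 late (-2.42 ± 0.46, adjusted p = 0.00793). Without the 8 h array its adjusted p was 0.0503. Over the same hours without Epo, Nab2 lay between 3.91 and 4.31 at 0 to 7 h.

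Fos, the AP-1 partner gene, was 6.79 at 0 h, 7.92, 6.64 and 5.36 in the early window and 4.01, 4.05 and 4.12 in the late one (-2.58 ± 0.44, adjusted p = 0.00365). Its late values were below its own 0 h level, so its course was a delayed fall and not a return. Jun, the other AP-1 partner, had 8.59 at 1 h and already 5.88 and 5.37 at 2 and 3 h, against 5.10, 5.19 and 5.01 late. The groups did not overlap, but the scatter of the early window left the difference of -1.51 ± 0.58 above the threshold (adjusted p = 0.184). Of 41 measured immediate early genes 8 fell and 0 rose, with a median of -0.43 against 0.00 over all genes, where 3.26% fell. The fallen members besides Egr1 and Fos included Klf6, a zinc finger factor gene (7.78, 6.78 and 6.14 early, 5.11, 5.42 and 5.44 late, -1.57 ± 0.30, adjusted p = 0.00871), and Sgk1, a kinase gene downstream of PI3 kinase (4.68, 5.08 and 5.35 early, 3.71, 3.49 and 3.44 late, -1.49 ± 0.17, adjusted p = 0.000321). Sgk1 was chosen after its values were seen. Klf6 lost its call without 6 h (adjusted p = 0.0657), averaged over its probe sets (-0.83, adjusted p = 0.127) and without cross-hybridising probe sets (-0.82, adjusted p = 0.0582). Myc fell too, by 0.80 (-0.80 ± 0.13, adjusted p = 0.00257). Without the 3 h array, the early hour nearest to the late window, 19 of the 41 fell, and without 2 h 7 did.

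**Figure D1:**
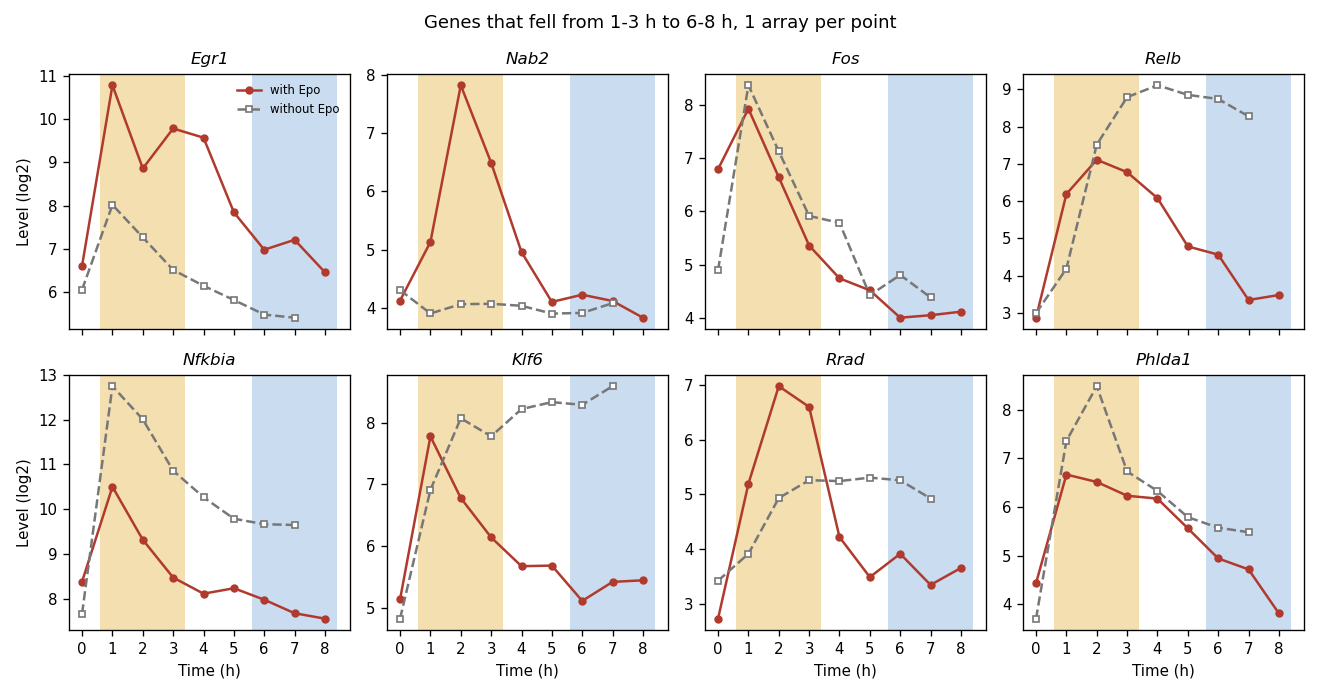
Level on the log2 scale (vertical axis) against hours (horizontal axis) for 8 genes that fell from the early window (yellow) to the late window (blue), 1 array per point, with Epo (red, solid) and without (grey, dashed). Egr1 with Epo reads 10.78 at 1 h and 6.46 at 8 h, while Relb and Klf6 without Epo stay high to 7 h.

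NF-kB signalling is a stress and cytokine response whose own inhibitor is among its targets. Of 19 measured genes of the pathway, 3 had an early rise that faded and 3 an early rise that was not called between the windows. The list median at 1, 2 and 3 h was 0.80, 0.46 and 0.37 above 0 h with Epo. Without Epo it was 0.65, 1.10 and 0.91 above that series' own 0 h array. Relb, a subunit of the noncanonical branch, read 2.87 at 0 h, 6.19, 7.11 and 6.78 early and 4.56, 3.34 and 3.48 late (-2.90 ± 0.29, 7.46-fold, adjusted p = 0.000143). Nfkb2, its partner subunit and the first of the promoters above, read 5.88 at 0 h, 7.33, 7.74 and 7.32 early and 6.06, 6.27 and 6.03 late (-1.35 ± 0.15, adjusted p = 0.000279). In both genes every early value lay above every late one. Nfkbia, which encodes the inhibitor IκBα, was at 10.50, 9.32 and 8.48 early and 7.98, 7.68 and 7.56 late, after 8.39 at 0 h (-1.69 ± 0.35, adjusted p = 0.0141). That call was lost without 2, 6, 7 or 8 h, with an adjusted p of up to 0.0789. Tnfaip3, which encodes the ubiquitin-editing inhibitor A20, had 6.33 at 1 h from 3.77 at 0 h and 3.81 to 4.51 late, and its difference of -0.99 ± 0.40 did not pass (adjusted p = 0.212). Of 19 measured NF-kB genes 3 fell and 0 rose (median -0.36, 16 of 19 below 0), where 3.26% of all genes fell and 1.91% rose. Without 3 h 8 fell, and 2 fell without 2, 6, 7 or 8 h.

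The remaining faded rises covered several functions. Rrad, a small GTPase gene of the RAS superfamily, was 2.73 at 0 h, 5.20, 6.98 and 6.60 early and 3.92, 3.35 and 3.66 late (-2.62 ± 0.34, adjusted p = 0.000647). Phlda1, a pleckstrin-like domain protein gene counted with ERK feedback, was 4.44 at 0 h, 6.67, 6.51 and 6.23 early and 4.94, 4.72 and 3.82 late (-1.98 ± 0.24, adjusted p = 0.000442). Klhl24, a FOXO target gene encoding a ubiquitin ligase adaptor, was 5.04 at 0 h, 6.28, 6.62 and 5.90 early and 3.80, 4.81 and 4.89 late (-1.77 ± 0.26, adjusted p = 0.00152), but read 6.24, 7.64 and 7.98 at 14, 19 and 24 h. The other 6 of the 15, chosen after their values were seen, were the AP-1 gene Jund (-1.28), the stress factor gene Atf3 (-0.94), the retroelement silencing gene Resf1 (-1.05), the small nucleolar RNA host gene Snhg12 (-1.03), the NF-kB adaptor gene Bcl10 (-0.94) and the matricellular protein gene Ccn1 (-0.83). The call on Ccn1 was the weakest (adjusted p = 0.0480) and was lost without 1, 2, 6, 7 or 8 h, with an adjusted p of up to 0.197. The second probe set of Jund did not share its direction.

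Across the 15 genes the share of the early rise that was gone by the late window ran from 41.7% in Atf3 to 162% in Nfkbia, with a median of 89.3%. All 15 were chosen for an early rise and a lower late mean, so some loss was set by that choice. The highest early value was at 1 h in 5 of them and at 2 h in 10. In 14 of 15 the late mean was within 1 of 0 h, and the exception was Atf3 at 6.01, 5.65 and 6.25 late from 4.65 at 0 h. Later on, 10 of the 15 were higher at 24 h than in the late window. The share over all genes was not counted, so no rebound can be read from this.

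Among feedback genes of the ERK branch the courses differed. Dusp6, which encodes a phosphatase of ERK, ran down from 4.73 at 0 h through 3.81, 3.44 and 2.88 to 2.56, 2.32 and 2.36 (-0.96 ± 0.19, adjusted p = 0.0113), and Spry2, a Sprouty inhibitor gene, from 4.51 through 4.07, 4.14 and 3.44 to 2.83, 3.03 and 3.19 (-0.87 ± 0.18, adjusted p = 0.0149). Both calls were lost without single arrays, Dusp6 without 2, 7 or 8 h (adjusted p up to 0.0718) and Spry2 without 1, 2, 6 or 7 h (up to 0.0902). The second probe set of Spry2 did not share its direction, and the mean of both was at -0.27 (adjusted p = 0.163). The late level of Dusp6 lay near that of the TrpnX-5 and TrpnX-M control probe sets, 2.17 to 2.54 on the late arrays, so it may not be above background. Another phosphatase gene, Dusp16, was 5.85 at 0 h, 8.31, 7.52 and 6.42 early and 5.92 to 6.39 late, and did not pass (-1.25 ± 0.34, adjusted p = 0.0547). It passed without 3 h (adjusted p = 6.76e-05). Dusp1, a phosphatase gene of the stress kinases, rose from 8.23, 7.23 and 7.71 to 8.33, 8.64 and 8.64 (0.81 ± 0.21, adjusted p = 0.0377), a call lost without 2, 6, 7 or 8 h (up to 0.177). Spry4 lay between 5.01 and 5.34 on all 6 arrays (-0.08 ± 0.14, adjusted p = 0.840). In all, 1 of 20 measured ERK feedback genes rose and 3 fell (median -0.19), against 1.91% and 3.26% of all genes.

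Of 22 measured feedback inhibitors of JAK2 and STAT5, 2 had an early rise from 0 h, Cish and Socs3, and neither fell between the windows. Cish, which encodes CIS, stood at 6.37 at 0 h, 9.14, 8.47 and 8.06 early and 8.00, 8.22 and 8.30 late. Early and late values overlapped, and the difference of -0.38 ± 0.21 did not pass (adjusted p = 0.412), although it did without 3 h (-0.63, adjusted p = 0.0356). Socs3, whose product blocks JAK2 at the receptor, stood at 4.36 at 0 h, 7.25, 6.78 and 6.58 early and 6.89, 7.37 and 7.50 late (0.38 ± 0.20, adjusted p = 0.354). Its late mean was 2.89 above 0 h and that of Cish 1.81. Socs2, a SOCS gene that had not moved early, rose: it was 6.81 at 0 h, 6.57, 6.53 and 6.81 early and 7.15, 7.31 and 7.52 late (0.69 ± 0.15, adjusted p = 0.0155). That call was lost without 2, 7 or 8 h (adjusted p up to 0.0982), and of its 5 other probe sets 2 shared the direction. As the mean of its probe sets the difference was 0.19 (adjusted p = 0.395). Socs1 was between 4.08 and 4.28 on the 6 arrays, and the ubiquitin ligase gene Cblb was 4.98, 3.89 and 5.31 early and 5.27, 5.44 and 5.11 late (0.55 ± 0.28, adjusted p = 0.351). Over the list 2 rose between the windows, Socs2 and the phosphatase gene Dusp1, and 0 fell, with a median of 0.06. Of all genes 1.91% rose and 3.26% fell.

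The receptor and its signal transducers showed no call. Epor was 9.79, 9.66 and 10.13 early and 9.84, 10.07 and 10.05 late (0.13 ± 0.13, adjusted p = 0.692), with overlapping windows. Jak2 differed by -0.12 ± 0.14 (adjusted p = 0.739), Stat5a by -0.11 ± 0.17 (0.809), Stat5b by -0.08 ± 0.15 (0.859) and the adaptor gene Irs2 by -0.32 ± 0.19 (0.437). Of 22 genes of the receptor pathway 0 rose and 0 fell by limma, where 5.17% of all genes changed, and 1 had an unadjusted p under 0.05. At 14, 19 and 24 h, outside both windows, Stat5a read 5.39, 4.84 and 5.32 after 7.08, 7.26 and 6.74 late.

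Targets of STAT5 split by course. Pim1, a survival kinase gene, was 7.46 at 0 h, 8.41, 8.86 and 9.37 early and 9.14, 9.47 and 9.34 late, so that the 3 h value overlapped the late window (0.43 ± 0.19, adjusted p = 0.269, and 0.68 with adjusted p = 0.00864 without 3 h). Its relatives Pim2 (0.01 ± 0.15) and Pim3 (-0.32 ± 0.15) did not pass (adjusted p = 0.990 and 0.290). Bcl2l1, which encodes the survival protein BCL-XL, was 7.70, 8.02 and 8.05 early and 8.28, 8.30 and 8.28 late (0.36 ± 0.13, adjusted p = 0.154), and 10.32 at 24 h. Id2, which encodes an inhibitor of helix-loop-helix factors, fell from 6.29, 5.94 and 5.00 to 4.07, 3.69 and 3.80 after 7.70 at 0 h (-1.89 ± 0.26, adjusted p = 0.000871). Its other probe sets moved less: without cross-hybridising probe sets it was at -0.35 (adjusted p = 0.197). Id1 was at -0.21 ± 0.13 (adjusted p = 0.466). Over 25 measured STAT5 targets 4 rose and 2 fell (median 0.09), against 1.91% and 3.26% of all genes. The 4 were Trib3, Tfrc, Ccnd3 and Socs2, and the 2 were Id2 and Myc.

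**Figure D2:**
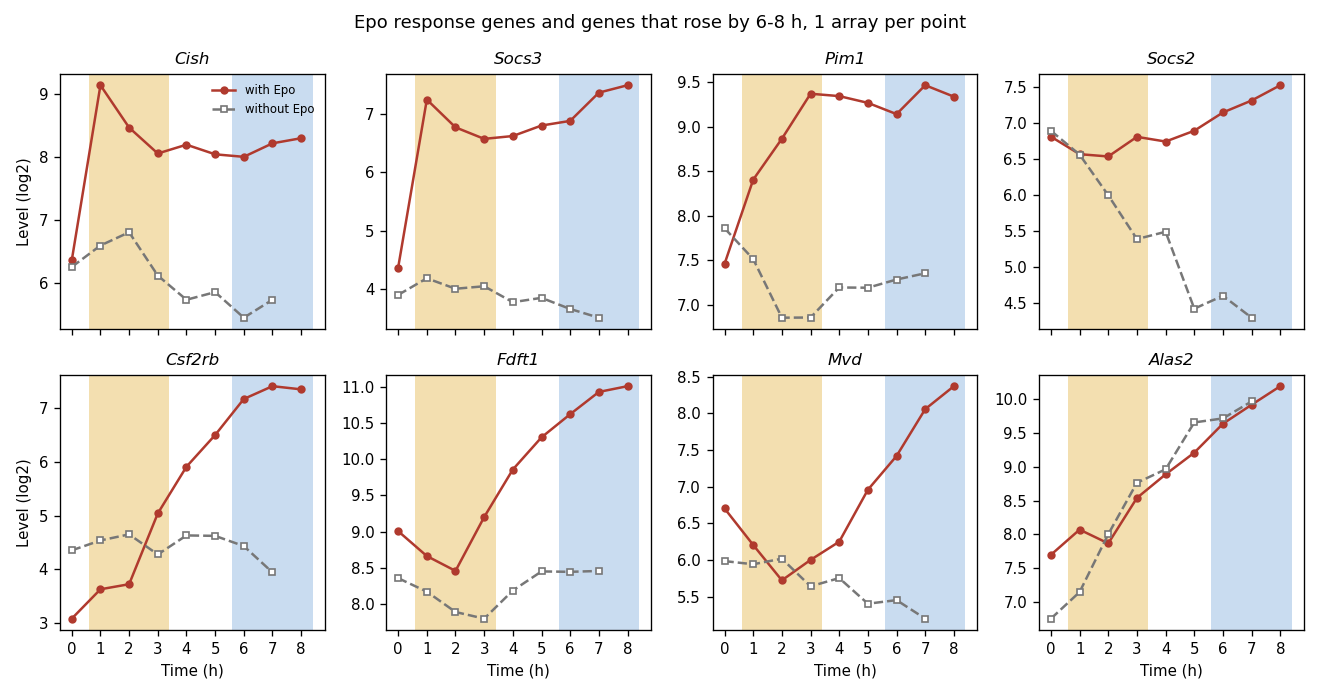
Level on the log2 scale against hours, 1 array per point, for 4 Epo response genes (top) and 4 genes that rose by the late window (bottom), with Epo (red, solid) and without (grey, dashed); yellow and blue bands mark the early and late windows. Cish with Epo stays between 8.00 and 9.14 from 1 to 8 h, and Csf2rb climbs from 3.08 at 0 h to 7.36 at 8 h.

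The largest rise drawn by the naming rule was in a cytokine receptor chain. Csf2rb, the common beta chain for interleukin-3, interleukin-5 and GM-CSF, was 3.08 at 0 h, 3.62, 3.72 and 5.04 early and 7.18, 7.42 and 7.36 late (3.19 ± 0.29, 9.12-fold, adjusted p = 7.39e-05). Every late value was above every early one by over 2, and the level without Epo was 3.94 to 4.65 at 0 to 7 h. Nqo1, a quinone reductase gene of the NRF2 antioxidant response, was 6.09 at 0 h, 6.46, 7.23 and 7.82 early and 9.71, 9.83 and 10.14 late (2.72 ± 0.26, adjusted p = 8.37e-05). Fhl1, a LIM domain protein gene, was 4.11 at 0 h, 4.28, 6.70 and 8.22 early and 9.38, 9.03 and 8.71 late (2.64 ± 0.67, adjusted p = 0.0375), so its steepest rise was inside the early window. That call was lost without 2, 6, 7 or 8 h (adjusted p up to 0.170), and its second probe set did not share the direction (mean of both 1.25, adjusted p = 0.133).

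Sterol synthesis genes rose together, and late. Cholesterol synthesis runs from acetyl-CoA through mevalonate and squalene to sterols, and its enzymes are mostly regulated in common by the factor SREBP2. Of 20 measured genes of the pathway 17 rose and 0 fell, against 1.91% of all genes that rose, with a median of 1.17. Leaving out any 1 of the 6 arrays left 15 to 17 that rose. Fdft1, squalene synthase, was 9.01 at 0 h, 8.66, 8.46 and 9.20 early and 10.62, 10.93 and 11.01 late (2.08 ± 0.17, adjusted p = 4.85e-05). Only 1 of its 3 other probe sets shared that direction, and averaged over all 4 it was at 0.90 (adjusted p = 0.00324). Mvd, which decarboxylates mevalonate diphosphate, was 6.70 at 0 h, 6.20, 5.72 and 6.00 early and 7.42, 8.06 and 8.37 late (1.97 ± 0.22, adjusted p = 0.000202). In both genes the early mean lay below 0 h.

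Msmo1, a sterol demethylating oxidase gene, went from 9.14, 9.43 and 10.23 to 11.17, 11.18 and 11.20 (1.58 ± 0.20, adjusted p = 0.000519), and Fdps, farnesyl diphosphate synthase, from 9.77, 9.55 and 9.94 to 10.91, 11.38 and 11.68 (1.57 ± 0.16, adjusted p = 0.000160). By hour the median of the 20 genes was -0.34, -0.27 and 0.05 from 0 h in the early window, 0.41 and 0.58 at 4 and 5 h, and 0.86, 1.09 and 1.21 late. It was still 1.12 at 14 h and 1.18 at 19 h, and 0.56 at 24 h. Of the 17, 12 were delayed rises and 5 stayed within 1 of 0 h in both windows.

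Enzymes of fatty acid synthesis and desaturation rose as well, by less. Of 16 measured 7 rose and 0 fell (median 0.52), against 1.91% and 3.26% of all genes. Elovl6, a fatty acid elongase gene, was 7.77 at 0 h, 7.46, 7.12 and 7.44 early and 8.68, 8.84 and 8.89 late (1.47 ± 0.13, adjusted p = 7.71e-05). Scd2, a desaturase gene, dipped from 10.94 at 0 h to 10.49, 9.87 and 9.77 early and read 10.76, 11.50 and 11.32 late (1.15 ± 0.20, adjusted p = 0.00378). Fasn, fatty acid synthase (1.11 ± 0.23, adjusted p = 0.0131), and the desaturase gene Fads2 (0.79 ± 0.16, adjusted p = 0.0133) rose too. Their calls depended on single arrays: Fasn lost it without 2 or 7 h (adjusted p up to 0.0704) and Fads2 without 2, 7 or 8 h (up to 0.0978). With 4 genes without 2 or 8 h and 3 without 7 h, the list's count was also lower without those arrays.

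**Figure D3:**
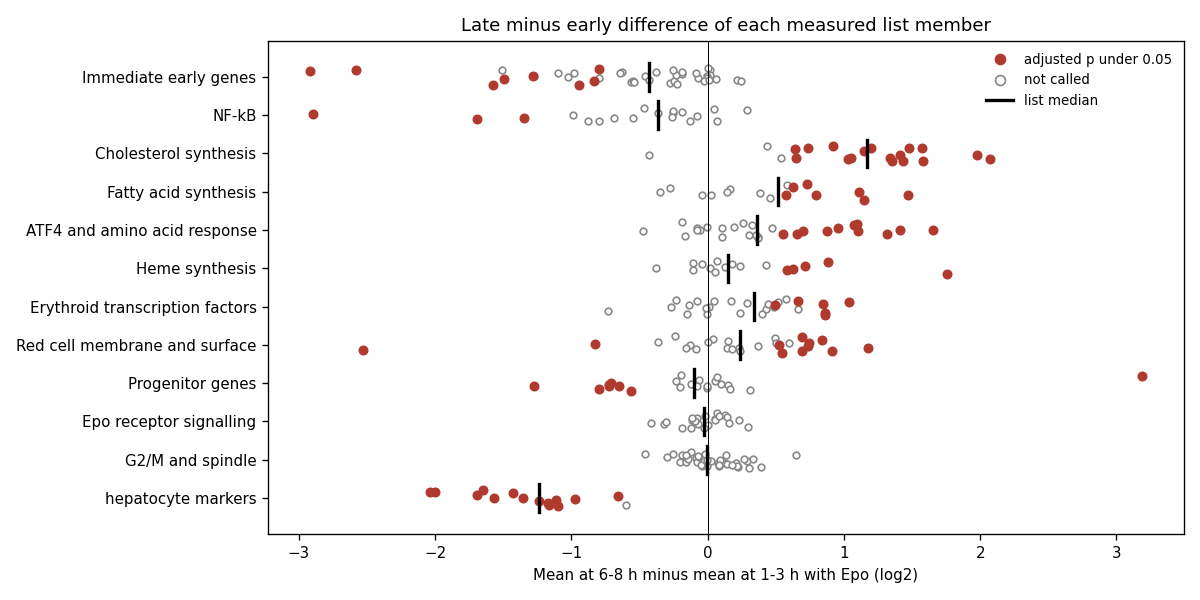
Difference between the mean at 6 to 8 h and the mean at 1 to 3 h with Epo (log2, horizontal axis) for each measured member of 12 gene lists (rows), with called genes filled, others open and the list median as a black bar. Cholesterol synthesis genes lie around 1.17 and hepatocyte markers around -1.24, while receptor pathway and G2/M genes centre near 0.

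The ATF4 and amino acid response, a programme of transporters, tRNA synthetases and stress factors that runs when amino acids are short or translation is stalled, rose in part. Of 33 measured genes 12 rose and 0 fell (median 0.37), against 1.91% and 3.26% of all genes. The 12 were 4 early rises that went on, 4 delayed rises and 4 genes within 1 of 0 h in both windows. Trib3, a pseudokinase gene that is also among the STAT5 targets, was 5.51 at 0 h, 7.09, 8.11 and 8.34 early and 9.14, 9.58 and 9.79 late (1.65 ± 0.26, adjusted p = 0.00246). Ddit3, which encodes the stress factor CHOP, was 6.51 at 0 h, 7.24, 7.55 and 7.80 early and 8.63, 8.99 and 9.22 late (1.41 ± 0.17, adjusted p = 0.000431). Nupr1, a stress protein gene and the third of the promoters above, was 4.50 at 0 h, 5.87, 5.70 and 5.79 early and 6.78, 7.17 and 7.35 late (1.31 ± 0.16, adjusted p = 0.000442). In each of these genes all late values lay above all early ones. Chac1, a glutathione-degrading enzyme gene, was 4.79 at 0 h, 7.22, 7.61 and 7.57 early and 8.63, 8.69 and 8.39 late (1.10 ± 0.14, adjusted p = 0.000603). Trib3, Ddit3, Nupr1 and Chac1 were 4 of the 7 genes with an early rise that went on, the others being Csf2rb, Nqo1 and Fhl1. Trib3, Ddit3 and Nupr1 read 12.20, 11.86 and 10.11 at 24 h, higher than in either window. Without 3 h 20 of the list rose, and without 7 or 8 h 8 did.

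Genes of red cell differentiation rose in part. Alas2, the first enzyme of heme synthesis in erythroid cells, was 7.70 at 0 h, 8.07, 7.87 and 8.54 early and 9.64, 9.92 and 10.19 late (1.76 ± 0.18, 3.38-fold, adjusted p = 0.000129). Slc25a37, which carries iron into mitochondria, rose from 9.81, 9.83 and 10.42 to 10.79, 11.13 and 10.81 (0.89 ± 0.15, adjusted p = 0.00415). Uros (0.72 ± 0.12) and Cpox (0.62 ± 0.13), both enzymes of the heme pathway, rose by less (adjusted p = 0.00435 and 0.0120), and Cpox lost its call without 7 h (adjusted p = 0.0932) and averaged over its probe sets (0.33, adjusted p = 0.192). In total 5 of 16 measured heme synthesis genes rose and 0 fell (median 0.15), against 1.91% and 3.26% of all genes.

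Of 26 erythroid transcription factors 6 rose and 0 fell, with a median of 0.34, where 1.91% of all genes rose and 3.26% fell. Nfe2, a regulator of globin genes, was 9.50 at 0 h, 9.13, 9.76 and 10.16 early and 10.62, 10.79 and 10.76 late (1.04 ± 0.19, adjusted p = 0.00657). Lyl1, a helix-loop-helix factor gene, rose by 0.86 ± 0.12 (adjusted p = 0.00128), E2f2 by 0.86 ± 0.15 (0.00364) and Klf3 by 0.85 ± 0.18 (0.0171). Gata1 went from 10.29, 9.81 and 10.06 to 10.38, 10.64 and 10.61 (0.49 ± 0.12, adjusted p = 0.0377), and Klf1 from 11.90, 11.50 and 11.91 to 11.98, 12.33 and 12.29, which did not pass (0.43 ± 0.12, adjusted p = 0.0551). Gata1 lost its call without 2, 6, 7 or 8 h (adjusted p up to 0.197) and Klf3 without 2, 7 or 8 h (up to 0.109). As the mean of its probe sets Klf3 was at 0.43 (adjusted p = 0.242). Of the list 3 rose without 2 h or without 7 h, and 13 without 3 h.

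Among 27 membrane and surface genes of red cells 9 rose and 2 fell (median 0.24), against 1.91% and 3.26% of all genes. Dmtn, a membrane skeleton gene, went from 8.20, 7.89 and 8.23 to 8.99, 9.46 and 9.40 (1.18 ± 0.15, adjusted p = 0.000513), the glucose transporter gene Slc2a1 from 9.46, 9.19 and 9.74 to 10.27, 10.45 and 10.40 (0.91 ± 0.13, adjusted p = 0.00113), and the glycophorin gene Gypc rose by 0.84 ± 0.15 (adjusted p = 0.00651). Gypc lost its call without 6 h (adjusted p = 0.0513), and the Dmtn difference was 0.51 without cross-hybridising probe sets (adjusted p = 0.0589). Without 7 h 4 of the list rose, and without 8 h 5.

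A pair of iron transport genes changed in opposite directions. Tfrc, which takes iron up, went from 12.34, 12.32 and 12.84 to 13.17, 13.31 and 13.24 (0.74 ± 0.11, adjusted p = 0.00159), and Slc40a1, which encodes the iron exporter ferroportin, from 8.93, 9.28 and 9.89 to 8.44, 8.20 and 8.09 (-1.12 ± 0.20, adjusted p = 0.00482). In both genes the windows did not overlap. Of 18 measured genes of iron uptake and storage 3 rose and 1 fell (median 0.09), against 1.91% and 3.26% of all genes.

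Globin genes did not move as a group. Hbb-bh1, an embryonic beta-like globin gene, rose by 0.82 ± 0.15 (9.92, 10.52 and 10.32 early, 11.02, 10.86 and 11.35 late, adjusted p = 0.00653), while Hbb-y, the other embryonic beta-like gene, fell by 0.64 (11.46, 11.65 and 11.31 early, 11.01, 10.70 and 10.79 late, -0.64 ± 0.10, adjusted p = 0.00293). Hbb-b2, an adult beta globin gene, was at 0.65 ± 0.13 (adjusted p = 0.0106) but at -0.51 with a probe set that is not marked as cross-hybridising (adjusted p = 0.075), so its direction is not settled. Globin genes share near-identical sequence, and probe sets may not tell them apart. Of 6 measured 2 rose and 1 fell (median 0.03), against 1.91% and 3.26% of all genes.

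Progenitor genes and regulators of the first cell cycle phase changed in both directions. Kit encodes the receptor for stem cell factor. From 6.99 at 0 h it went to 6.68, 6.23 and 6.03 early and to 5.11, 5.00 and 5.02 late (-1.27 ± 0.17, adjusted p = 0.000731). Myb, a progenitor transcription factor gene, was 9.62, 8.68 and 8.83 early and 8.64, 8.37 and 7.93 late and did not pass (-0.73 ± 0.23, adjusted p = 0.0916). Of 22 progenitor genes 1 rose, Csf2rb, and 6 fell (median -0.10). Ccnd1, the cyclin D1 gene, ran down from 8.51 at 0 h through 7.26, 7.13 and 6.84 to 5.89, 5.80 and 5.89 (-1.22 ± 0.15, adjusted p = 0.000397), while Ccnd3, the cyclin D3 gene, rose from 9.87, 9.75 and 9.87 to 10.30, 10.71 and 10.67 (0.73 ± 0.11, adjusted p = 0.00229). As the mean of its probe sets Ccnd3 was at 0.37 (adjusted p = 0.0869). Of 37 G1/S and replication genes 3 rose and 3 fell (median 0.00), and of 37 G2/M and spindle genes 0 rose and 0 fell (limma, median 0.00, 4 at an unadjusted p under 0.05). Of all genes 1.91% rose and 3.26% fell.

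Of 21 cell cycle brakes 1 rose and 1 fell, both CDK inhibitor genes, where 1.91% of all genes rose and 3.26% fell. Cdkn1c, which encodes p57, was 8.91 at 0 h, 8.03, 7.74 and 7.52 early and 6.43, 6.45 and 6.28 late (-1.38 ± 0.15, adjusted p = 0.000219). Cdkn2d, which encodes p19, read 7.16, 7.33 and 6.92 early and 7.49, 7.83 and 8.17 late (0.69 ± 0.18, adjusted p = 0.0387). The call on Cdkn2d was lost without 1, 2, 3, 7 or 8 h, with an adjusted p of up to 0.188.

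The largest falls other than those of the early peaks included several genes expressed in liver. Aqp1, the water channel of the red cell membrane, stayed near its 0 h level early and fell late. It was 8.60 at 0 h, 8.61, 8.54 and 8.15 early and 6.31, 5.97 and 5.44 late (-2.52 ± 0.21, 5.76-fold, adjusted p = 4.85e-05), and 3.68 at 24 h. Rgn, a calcium-binding protein gene of the liver, was 9.42 at 0 h, 8.63, 8.29 and 7.64 early and 6.11, 5.86 and 5.23 late (-2.45 ± 0.25, adjusted p = 0.000147). The others among the 12 largest falls were the fatty acid binding protein gene Fabp2 (-2.45 ± 0.27), the glucuronosyltransferase gene Ugt2b34 (-2.45 ± 0.21), the protease inhibitor gene Tfpi2 (-2.42 ± 0.21), the alkylglycerol monooxygenase gene Agmo (-2.39 ± 0.19) and the C-type lectin gene Cd302 (-2.30 ± 0.21). Each had an adjusted p of at most 0.000188. The rule drew the 12 only from called genes whose windows did not overlap, so both traits were set by the selection.

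Hepatocyte markers fell alongside: 14 of 15 measured fell and 0 rose (median -1.24, against 3.26% of all genes that fell). The fibrinogen gene Fgg read 9.70 at 0 h, 8.79, 8.72 and 8.31 early and 6.90, 6.55 and 6.27 late (-2.03 ± 0.18, adjusted p = 6.43e-05), and its partner Fga fell by 2.00 (-2.00 ± 0.20). Ttr, which encodes the plasma protein transthyretin, went from 11.94, 11.88 and 11.69 to 10.54, 10.09 and 9.93 (-1.65 ± 0.13, adjusted p = 4.85e-05). Summed on the linear scale, the 15 markers were 37821 at 0 h, 18912 to 24794 early and 7756 to 10557 late with Epo, and without Epo 10955 to 13442 at 1 to 3 h and 5462 to 5652 at 6 and 7 h. These markers fell over the same hours as the genes of the paragraph above, and their part in those changes was not tested. In RNA from bulk samples, fewer cells of a type and less RNA per cell cannot be told apart. Dlk1, the 1 called gene of 15 endothelial and stromal markers, is also expressed by fetal hepatoblasts and was at -1.41 ± 0.16 (adjusted p = 0.000219), but at -0.19 without cross-hybridising probe sets (adjusted p = 0.614). Erythroid markers summed to 14711 to 20226 early and 23007 to 27219 late, with 5 of 10 higher and 1 lower, against 1.91% and 3.26% of all genes.

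Few markers of other blood cells were called. Of 13 granulocyte, 17 macrophage, 9 mast cell and basophil and 13 lymphoid markers 0 rose and 0 fell by limma. At an unadjusted p under 0.05 the numbers were 3, 2, 1 and 0. Over all genes 1.91% rose and 3.26% fell, so lists this short may hold no call. Of 10 megakaryocyte markers 1 rose, the platelet factor gene Pf4 (0.85 ± 0.15, adjusted p = 0.00582). Summed levels of granulocyte markers were 390 to 511 early and 398 to 497 late, and those of macrophage markers 220 to 232 and 196 to 239.

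Other genes among the 12 largest rises had varied roles. Ncf4, a subunit gene of the phagocyte NADPH oxidase, was 5.03 at 0 h, 4.93, 5.49 and 5.18 early and 7.12, 6.97 and 7.72 late (2.07 ± 0.20, adjusted p = 0.000117), and 11.07 at 24 h. Irgm2, an immunity-related GTPase gene, rose by 1.81 ± 0.29 (adjusted p = 0.00284), the apolipoprotein L gene Apol8 by 1.66 ± 0.22 (adjusted p = 0.000743) and Ctla2a, which encodes a cysteine protease inhibitor, by 1.60 ± 0.15 (adjusted p = 7.75e-05). Ddc, the aromatic amino acid decarboxylase gene, was 5.38 at 0 h, 4.49, 5.79 and 6.41 early and 7.61, 7.11 and 6.95 late (1.66 ± 0.36, adjusted p = 0.0173), a call lost without 6 or 7 h (adjusted p up to 0.111) and averaged over its probe sets (0.86, adjusted p = 0.0880).

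**Figure D4:**
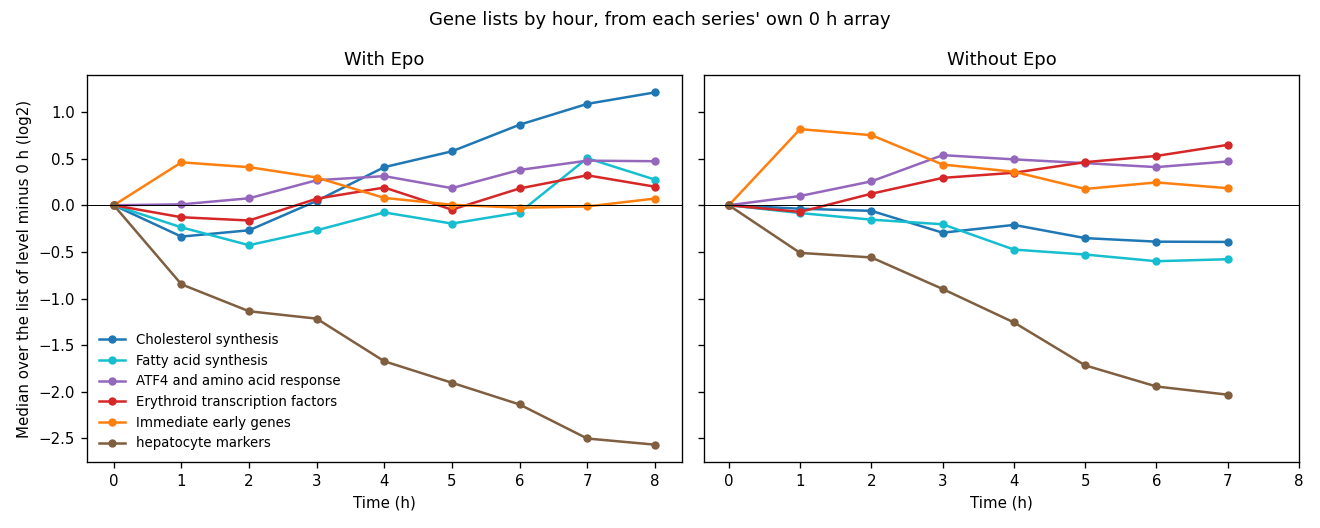
Median over the members of 6 gene lists of the level minus that series' own 0 h array (log2, vertical axis) by hour, with Epo (left) and without (right). The cholesterol synthesis median with Epo reads -0.34 at 1 h and 1.21 at 8 h, while in the series without it reads -0.39 at 6 and 7 h.

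The arrays without Epo give the changes over the hours that both series have. Each treatment is 1 series, so Epo cannot be told apart from a difference in preparation or in cell survival between the series. The series already differed early: the 15 hepatocyte markers summed to 18912 to 24794 at 1 to 3 h with Epo and to 10955 to 13442 without. For each gene the change from 1 to 3 h to 6 and 7 h with Epo was set against the same change without Epo, on 10 arrays. The changes differed for 864 genes (4.75%), 437 (2.4%) toward higher and 427 (2.35%) toward lower with Epo. This comparison shares its Epo arrays with the one above. It rested on few arrays: without the 7 h array of the series without Epo, which leaves 1 late array there and assumes that it varies like the others, 2 genes were called higher and 1 lower, and without its 3 h array 1165 and 1069. Of 27 genes named here whose changes differed, 0 kept the call without that 7 h array, 4 without the 7 h array with Epo and 7 without the 6 h array without Epo. The calls in the next paragraph carry that limit.

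Most genes that changed with Epo went the same way without it: 260 of the 348 that rose and 508 of the 593 that fell. The share of all genes that went the same way in both series was not counted, so this may not be particular to the called genes. Of the 348 and the 593, the changes differed in the called direction for 67 and 59 and in the opposite direction for 2 and 7. Of the cholesterol synthesis genes 13 of 20 differed, all higher with Epo (2.4% of all genes), and the median change was 1.12 with Epo and -0.29 without. For Mvd the difference of the changes was 2.30 ± 0.31 (adjusted p = 0.00494), for Msmo1 2.14 ± 0.35 (adjusted p = 0.00903), for Fdps 1.64 ± 0.21 (adjusted p = 0.00494) and for Fdft1 1.50 ± 0.29 (adjusted p = 0.0149). Msmo1 lost this call without cross-hybridising probe sets (0.83, adjusted p = 0.195), and as the mean of their probe sets so did Fdps (0.73, adjusted p = 0.0945) and Fdft1 (0.72, adjusted p = 0.0798). Of the fatty acid synthesis genes 8 of 16 differed, all higher, with Fasn at 2.33 ± 0.44 (adjusted p = 0.0137). Ribosome biogenesis genes, of which 1 rose and 1 fell between the windows, differed in 26 of 37, all higher with Epo. Their median change was 0.10 with Epo and -0.81 without. Csf2rb changed by 3.17 with Epo and by -0.30 without, a difference of 3.47 ± 0.48 (adjusted p = 0.00494). Socs2 changed by 0.59 with Epo and by -1.53 without, where it read 6.56 at 1 h and 4.30 at 7 h (difference 2.13 ± 0.38, adjusted p = 0.0119). As the mean of its probe sets the Socs2 difference was 0.69 (adjusted p = 0.0601).

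Of the early peaks, Rrad, Klf6 and Klhl24 changed further downward with Epo than without, by this test of the difference. Klf6 without Epo went from 6.91, 8.07 and 7.78 at 1 to 3 h to 8.29 and 8.59 at 6 and 7 h (difference -2.49 ± 0.58, adjusted p = 0.0327), and Klhl24 from 5.77, 7.74 and 8.49 to 8.83 and 8.73 (-3.41 ± 0.83, adjusted p = 0.0378). As the mean of their probe sets neither passed (-1.90 for Klf6, adjusted p = 0.0986, and -2.15 for Klhl24, adjusted p = 0.0821). Relb there read 4.19 at 1 h and 9.11 at 4 h and was 8.28 at 7 h, and the difference of -4.42 ± 1.33 did not pass (adjusted p = 0.0828). Fos was lower late in both series, with changes of -2.61 and -2.54 (difference -0.07 ± 0.96, adjusted p = 0.983), and so did Nfkbia (-1.60 and -2.21, adjusted p = 0.753).

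Lists of red cell genes changed further upward without Epo by their medians. The median change was 0.16 with Epo and 0.62 without for heme synthesis (3 of 16 genes differed, all lower with Epo), 0.02 and 0.51 for the globins (2 of 6, lower), and 0.20 and 0.48 for membrane genes (3 of 27, lower). Of 10 erythroid markers 2 differed, both lower with Epo. Over all genes 2.35% differed toward lower with Epo and 2.4% toward higher. Alas2 changed by 1.62 with Epo and 1.87 without (difference -0.25 ± 0.50, adjusted p = 0.861), Nfe2 by 1.02 and 1.53 (adjusted p = 0.659) and Dmtn by 1.12 and 1.39 (adjusted p = 0.819). The intervals are wide, and these p-values do not show that the changes were alike. The median change of the erythroid transcription factors was 0.35 with Epo and 0.52 without, and 1 of 26 differed. Hepatocyte markers changed by a median of -1.21 with Epo and -1.31 without, and 0 of 15 differed, against 4.75% of all genes. Kit changed by -1.26 with Epo and 0.16 without (difference -1.42 ± 0.27, adjusted p = 0.0149), and Aqp1 by -2.29 and -0.35 (difference -1.95 ± 0.24, adjusted p = 0.00494).

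**Figure D5:**
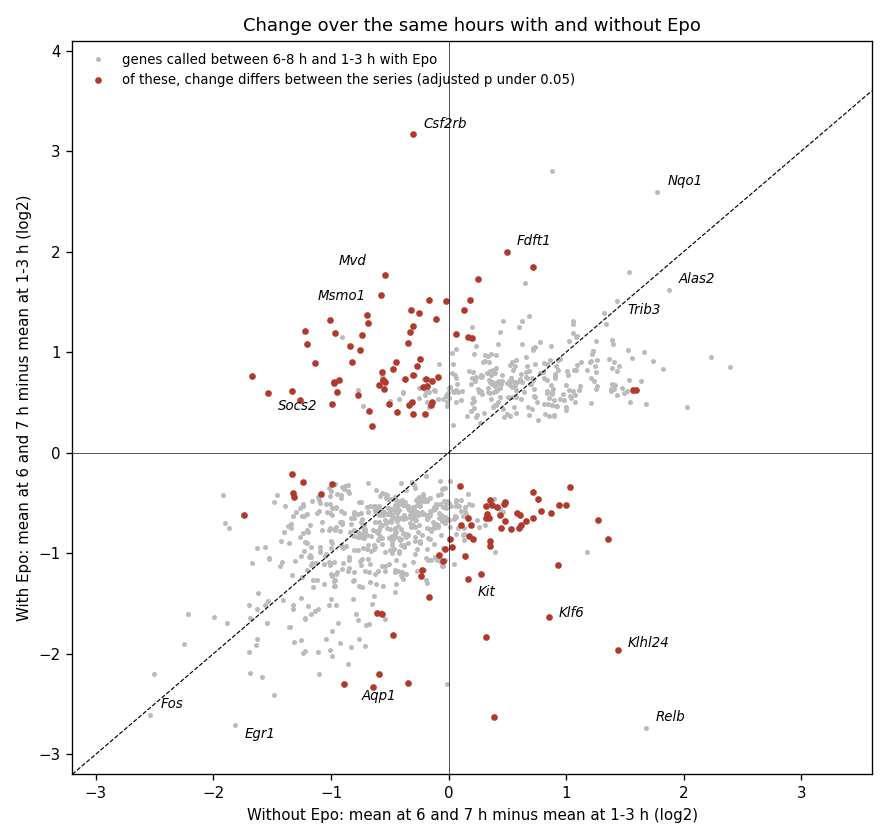
For the 941 genes called between the windows, the change from 1 to 3 h to 6 and 7 h with Epo (vertical axis, log2) against the same change without Epo (horizontal axis), with genes whose changes differed between the series in red and equal changes on the dashed line. Csf2rb, at 3.17 with Epo and -0.30 without, lies far above the line, and Fos, at -2.61 and -2.54, lies on it.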

How the data were processed

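RNA was hybridised to mouse expression arrays, 1 per sample, 20 in all. The authors deposited log2 levels, judged so from their range (1.37 to 14.6). Their summarisation and scaling are not given in the sources used. Of 45101 probe sets 34945 named 1 gene in the platform annotation, 932 several and 9160 none here, and 64 were controls. For 34741 the gene was found in a RefSeq table of assembly GRCm38.p6. Each of 18193 genes was represented by its brightest probe set (mean of the 20 arrays), with no filter on dim genes. Of the called genes 514 had other probe sets, 752 of 925 of which (81.3%) shared the direction.

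The windows were compared with limma 3.58.1 in R 4.3.3 (empirical Bayes with trend) on 6 arrays, and the changes with and without Epo on 10, with Benjamini-Hochberg adjustment over all genes. Tables used Python 3.11.15 and pandas 2.3.3. Members, tests and the 51 gene lists were chosen with earlier results of these data known, and 102 of 1191 list entries matched no gene tested. Named genes were drawn from the 12 largest rises and falls, the up to 4 largest changes of each list and a fixed set of pathway genes, unless stated otherwise. The 12 were taken only among called genes whose windows did not overlap, leaving out clone, predicted and number names. On simulated data of 18193 genes with 200 changed, the fit between the windows recovered 18% of differences of 0.5, 76% of 1 and 100% of 2 and 4, with 3 unchanged genes called. For the difference of the changes the shares were 2%, 46%, 90% and 100%, with 8. The simulated arrays varied independently, without the trends between successive hours of the real ones. The shares and false calls may therefore not carry over to these data. Alternatives were other scalings, probe set choices and variance models, other uses of the hours, and each array left out. Arrays have no read depth; their number limits the precision.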

Additional observations from a re-analysis of the deposited data

Results flagged for a closer look

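A change that differed between the series with and without Epo, by the test of the difference itself, was found for 864 genes in all and for the following named genes (log2, change with Epo minus change without, from 1 to 3 h to 6 and 7 h). Each of these calls was lost without the 7 h array of the series without Epo.

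Lipid synthesis genes changed further upward with Epo. The differences were 2.30 for Mvd, 2.14 for Msmo1, 1.64 for Fdps and 1.50 for Fdft1 in sterol synthesis, and 2.33 for Fasn, 2.29 for Scd2, 1.75 for Elovl6 and 1.24 for Fads2 in fatty acid synthesis.

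Receptor and feedback genes went both ways. The difference was 3.47 for Csf2rb and 2.13 for Socs2, and -1.01 for Epor, -1.09 for Jak2, -1.02 for Bcl2l1 and -1.42 for Kit. In Epor and Jak2 the change was small with Epo, 0.09 and -0.16, and upward without, 1.11 and 0.93. Bcl2l1 changed by 0.37 and 1.38, and as the mean of its probe sets its difference was -0.49 (adjusted p = 0.258).

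Further genes that fell between the windows with Epo had negative differences: -3.02 for Rrad, -3.41 for Klhl24, -2.49 for Klf6, -1.28 for Sgk1, -1.95 for Aqp1, -1.61 for Fabp2, -1.69 for Tfpi2, -1.41 for Agmo and -1.06 for Hbb-y. Genes with positive ones were Chac1 at 2.16, which peaked at 8.98 at 2 h without Epo and read 7.18 at 7 h, Apol8 at 1.53, Ctla2a at 1.34 and Ncf4 at 1.13.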

How the results depend on the processing

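The windows are 3 hours each, and the series without Epo has 2 late arrays, so counts of calls moved with single arrays. No paired analysis was possible because the windows hold different hours and the labels give no shared replicate numbers; only the comparison with the series without Epo shares hours. There, with the hour as a block, added after seeing the data, 658 changes differed toward higher and 713 toward lower, and Relb passed (adjusted p = 0.0174). Same-hour arrays deviated together with correlations of 0.03 to 0.22, so the hours were not taken as pairs. Leaving out 1 array, genes higher late ranged from 134 to 643 and lower from 272 to 942, and genes whose changes differed between the series from 2 to 1165 higher and from 1 to 1069 lower. For the lists, members that rose ranged from 3 to 8 (fatty acid synthesis), 8 to 20 (ATF4 response), 3 to 13 (erythroid factors) and 4 to 13 (red cell membrane), and members that fell from 6 to 19 (immediate early genes) and 2 to 8 (NF-kB). With 4 and 5 h added to the windows, 146 genes were higher and 295 lower, with 1 fatty acid, 3 erythroid factor and 4 membrane genes higher. With the mean of all probe sets, 262 changes differed toward higher and 249 toward lower, and 3 erythroid factors rose. The slope over 1 to 8 h called 16 immediate early genes lower, and without cross-hybridising probe sets, which leaves fewer genes, 8 hepatocyte markers fell.

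With a distance of 0.5 from 0 h the classes held 27 rises and 51 falls that faded, 23 rises and 214 falls that went on, 414 rises and 916 falls not called, 182 delayed rises and 255 delayed falls, and 189 genes near 0 h. With 1 h as the early level 4 rises and 58 falls went on. Without cross-hybridising probe sets Ccn1 turned to 0.0083 and Hbb-b2 to -0.51. Among single genes, 1640 alternatives kept direction and call of the difference between the windows, 118 lost and 21 gained the call. With robust variance Fos, Nab2, Nfkbia, Fhl1 and Ddc lost it (adjusted p = 0.0904, 0.143, 0.145, 0.357 and 0.0769). Averaged over probe sets, the differences of Klhl24 (-0.78), Nfkb2 (-0.73), Jund (-0.56), Fdps (0.83), Elovl6 (0.96), Id2 (-1.06) and Cd302 (-1.13) were over 1.5 times smaller and still called. The cause of these shifts was not tested.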

Other observations

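Genes of the NRF2 antioxidant response, which detoxifies quinones and peroxides, changed in both directions. Between the windows 6 of 21 measured rose and 2 fell (median 0.17), against 1.91% and 3.26% of all genes. Nqo1 is described above. Srxn1, which repairs oxidised peroxiredoxins, was 5.92 at 0 h, 6.89, 8.07 and 9.15 early and 9.13, 9.07 and 9.03 late, so that it reached its late level by 3 h and did not pass (1.04 ± 0.38, adjusted p = 0.169). Without 3 h it was at 1.60 (adjusted p = 0.000418). The glutathione transferase genes Gsta3 (-1.08 ± 0.19, adjusted p = 0.00474) and Gstm1 (-0.82 ± 0.14, adjusted p = 0.00375), both expressed in liver, fell while hepatocyte markers fell, whose part in this was not tested. Of 30 glycolysis and hypoxia genes 5 fell and 1 rose (median -0.09), against 3.26% and 1.91% of all genes. The fallen included Pgam1, a glycolytic mutase gene (10.52, 10.39 and 10.29 early, 9.54, 9.46 and 9.34 late, -0.95 ± 0.10, adjusted p = 0.000183), and Bnip3, a mitophagy receptor gene (-0.94 ± 0.16, adjusted p = 0.00456), and Slc2a1 rose. Among 21 cytokine receptor chains 2 rose and 3 fell (median -0.01), against 1.91% and 3.26% of all genes. The 2 included Csf2rb. The 3 included both chains of the interferon-gamma receptor, Ifngr1 (-0.87 ± 0.13, adjusted p = 0.00179) and Ifngr2 (-1.19 ± 0.20, adjusted p = 0.00364). Smad6, an inhibitor gene of BMP signalling, dipped from 4.61 at 0 h to 4.06, 3.44 and 4.25 and was 5.03, 5.59 and 5.53 late (1.47 ± 0.21, adjusted p = 0.00131).

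The 5 early falls that faded were named after their values were seen. Lfng, which encodes a glycosyltransferase of Notch receptors, was 6.81 at 0 h, 5.31, 5.01 and 5.54 early and 6.47, 6.61 and 6.69 late (1.30 ± 0.16, adjusted p = 0.000431), and Lrif1, a nuclear receptor interacting factor gene, was 6.14, then 4.98, 4.73 and 5.16, and 6.08, 6.15 and 5.91 (1.09 ± 0.15, adjusted p = 0.00106). Both returned to within 0.5 of 0 h. Cachd1 (1.30 ± 0.29), the zinc finger gene Zfp324 (1.00 ± 0.21) and the ubiquitin ligase gene Rnf43 (0.63 ± 0.15) also rose back, but each lost its call without some of the arrays, with adjusted p-values of up to 0.115, 0.0845 and 0.120. Hspa1a, the inducible chaperone gene, was 8.86 at 0 h, 9.19 at 1 h and 4.90 and 4.35 at 2 and 3 h, and 3.91 to 4.66 late. The break fell inside the early window, and the difference between the windows did not pass (-1.91 ± 0.88, adjusted p = 0.287). Txnip, an inhibitor gene of glucose uptake, was 7.34, 6.53 and 6.59 early and 6.54, 6.27 and 5.86 late (-0.60 ± 0.22, adjusted p = 0.173), and 8.82 at 24 h.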
